A study of Mus musculus with 6 samples.

Results

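Tlr2, Cd14, Myd88, Irak1, Irak2 and Tollip are 6 genes of Toll-like receptor sensing, and all 6 were found among the 12625 gene symbols of a count table from C2C12 myotubes. C2C12 is a mouse myoblast line whose cells fuse into myotubes in culture. The table held 6 RNA sequencing libraries: 3 from myotubes given 100 ng per ml of recombinant mouse RANKL (TNFSF11) for 72 h after 5 days of differentiation, and 3 from vehicle myotubes. All 6 libraries came from this 1 cell line without any genetic change being named. The labels give the times of differentiation and exposure for RANKL libraries only. They do not say what the vehicle was or whether replicates were separate cultures. The spread between libraries, on which every SD, interval and p-value here rests, may therefore be technical.

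The 6 genes were chosen by name from the pathway, with the differences between RANKL and vehicle in these same libraries already known. Their fold changes are for that reason given as a description, with 95% intervals from the fit across all genes and with no p-value. The other genes of the pathway come from lists drawn up by pathway role, which were also fixed with earlier results of these data known. These genes carry p-values adjusted over all 12625 genes.

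Toll-like receptors are membrane proteins that bind microbial molecules and some products of damaged tissue through repeats rich in leucine. TLR2 pairs with TLR1 or TLR6 and binds bacterial lipoproteins, and TLR4 with its partner MD-2 (Ly96) binds lipopolysaccharide; CD14 is the co-receptor that hands ligands to both. Once engaged, most of these receptors recruit the adaptor MyD88 through its TIR domain, and MyD88 assembles the IRAK kinases into a complex that activates TRAF6, NF-kB and MAP kinases. TOLLIP binds the receptors and IRAK1 and is known as a brake on the pathway. Muscle cells are known to express several Toll-like receptors, although the pathway is best studied in macrophages.

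Total counts were 32732604 to 37445933 in RANKL libraries and 33566746 to 39677999 in vehicle libraries, so 3 counts, as the upper limit for a gene with no count, correspond to 0.0772 to 0.0906 counts per 1000000 (CPM, scaled by TMM). Such limits cover counting error only. Of 14 leukocyte and macrophage markers, 3 (Itgam, Cd68 and Mrc1) were in the table, and Ptprc, Adgre1, Csf1r and Lyz2 were among the 11 others, which are not analysed here. The 3 measured ones summed to 1.87 to 2.84 CPM in RANKL libraries and 1.85 to 1.98 CPM in vehicle libraries. Itgam, Cd68 and Mrc1 had log2 fold changes of 0.49 ± 0.24, 0.64 ± 0.33 and -0.46 ± 0.29 (SE) and were not called. Of 5 markers of unfused or cycling cells, the cell cycle genes Mki67, Cdk1 and Top2a rose. The myoblast markers Pax7 and Myf5 were not called, with log2 fold changes of -0.31 and 0.14. The sum of the 5 was 117 to 138 CPM in RANKL libraries and 88.1 to 96.8 CPM in vehicle libraries. All 9 myotube markers on the list were in the table. Of these, Myh8, Acta1 and Myh3 fell, although Myh3 was not called with total count scaling, with limma-trend, or without RANKL replicate 2, vehicle replicate 1 or vehicle replicate 2. The other 6 were not called. Tnnt3, Ckm, Mylpf and Myog had log2 fold changes of 0.05, 0.04, 0.03 and 0.007, and Des and Ttn of -0.07 and -0.37. The sum of the 9 was 26800 to 27400 CPM in RANKL libraries and 28500 to 30800 CPM in vehicle libraries. Ttn alone spanned 3082 to 5425 CPM among the vehicle libraries. Of 4 measured fibroblast markers Col3a1 rose, but 0 were called without vehicle replicate 2 and 3 (with Col1a1 and Pdgfra) with total count scaling. The 4 had sums of 4560 to 5140 CPM in RANKL libraries and 4090 to 4360 CPM in vehicle libraries, and 2 endothelial markers summed to 1.97 to 2.28 CPM in RANKL libraries and 1.57 to 2.47 CPM in vehicle libraries. The part of these shifts in the values below was not tested, and in bulk RNA fewer cells of a type and less RNA per cell cannot be told apart.

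Of the 6 genes, Tlr2 was called higher under RANKL, and the other 5 were not called. A call means an adjusted p under 0.05 by edgeR's quasi-likelihood test with Benjamini-Hochberg adjustment. Over all genes the same rule called 12.9%, with 5.35% higher and 7.5% lower. That balance depends on scaling: with TMM 41.7% of called genes were higher, and with total counts 63.1%, while the median log2 fold change moved by 0.031. The libraries of the groups did not overlap for 2 of the 6 genes, Tlr2 and Cd14, against 31.5% of all genes. The median log2 fold change was 0.11 over the 6 genes and 0.00 over all genes. Because the genes were chosen with these values known, nothing is read from those shares, and the calls of the 6 genes are descriptions too.

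**Figure D1:**
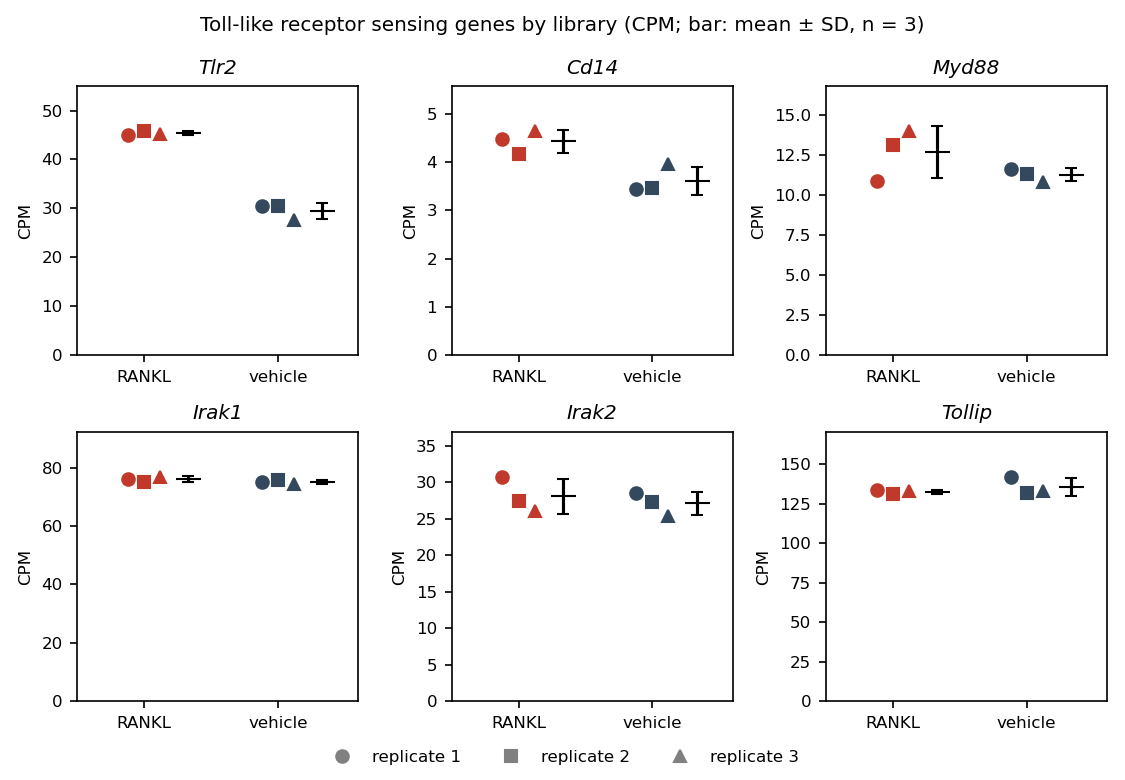
Expression of the 6 genes in each library, in CPM on axes that start at 0, with RANKL libraries in red on the left and vehicle libraries in dark blue on the right. Symbols mark replicates and the bars beside them are mean ± SD (n = 3). The RANKL libraries of Tlr2 sit between 45.1 and 45.8 CPM, above every vehicle library, while those of Myd88 spread from 10.9 to 14.0 CPM around the vehicle range.

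Tlr2, the receptor for bacterial lipoproteins, had 45.1, 45.8 and 45.2 CPM in RANKL replicates 1, 2 and 3, against 30.4, 30.5 and 27.6 CPM in vehicle replicates 1, 2 and 3. The RANKL libraries lay close together and the lowest stood well above the highest vehicle library. The log2 fold change was 0.62 ± 0.05 (SE), with a 95% interval of 0.52 to 0.72, which is a fold of 1.54 (1.43 to 1.65). The coefficient of variation was 0.888% over RANKL libraries and 5.49% over vehicle libraries, where counting error alone gives 2.51% and 3.05% at 1497 to 1700 and 1014 to 1183 counts. Among the 676 genes called higher over the whole table the median log2 fold change was 0.28, and 127 of them (18.8%) had a larger one than Tlr2. On mm10 the gene lies on the minus strand of chromosome 3 from 83836272 to 83841767, in 3 exon blocks, and shares no exon with another annotated gene.

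The promoter of Tlr2 was read for the kappaB consensus, the DNA word bound by NF-kB dimers, because NF-kB lies downstream of RANK and of the Toll-like receptors alike. Promoters were the 250 bases before each RefSeq transcript start (GRCm38.p6, the mm10 assembly), searched on both strands, and 7.25% of 32851 such windows held a match, or 8.23% of gene symbols. Windows were given for 5 of the 6 genes, all but Cd14. The windows of Tlr2 and Irak1 held a match, and those of Myd88, Irak2 and Tollip held none. Among the other measured pathway genes with a window, 4 of 6 that were called higher held a match (Irf1, Tank, Tnfaip3 and Tnip1). So did 4 of the remaining 34 (Cyld, Map3k7, Tlr3 and Traf3), whose stretches are not shown. The lists were fixed with earlier results of these data known, so these shares are descriptions, and their difference was not tested. Zc3h12a and Ikbkg were called higher and held none, and neither did Saa3, Tnc, Vcan or Ddx58, genes called higher on 2 related lists described further on. For Lbp and Map3k8, also called higher, no window was used. The stretches below are shown because they carry these matches beside genes that rose and beside Irak1, which was not called. Capitals mark the match, and each stretch reads 5′ to 3′ on the gene's own strand, outside the exons that GENCODE M21 gives the gene.
Tlr2, chr3:83841768-83841821, minus strand: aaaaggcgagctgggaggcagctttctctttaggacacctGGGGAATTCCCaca
Irak1, chrX:74023922-74023979, minus strand: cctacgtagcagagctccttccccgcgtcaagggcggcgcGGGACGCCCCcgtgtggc
Irf1, chr11:53769961-53770013, plus strand: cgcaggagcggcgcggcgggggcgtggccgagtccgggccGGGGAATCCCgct
Tnip1, chr11:54962947-54963038, minus strand: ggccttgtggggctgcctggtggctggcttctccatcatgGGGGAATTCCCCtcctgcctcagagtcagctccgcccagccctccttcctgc
Tnfaip3, chr10:19015486-19015547, minus strand: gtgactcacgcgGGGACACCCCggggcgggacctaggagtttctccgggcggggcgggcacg
Tank, chr2:61592985-61593074, plus strand: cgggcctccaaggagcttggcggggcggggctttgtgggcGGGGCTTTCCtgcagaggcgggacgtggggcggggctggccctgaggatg

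In Tlr2 the 11 capital bases are 2 overlapping matches, 173 to 163 bases before the RefSeq start. In Tnip1 the 12 capital bases are 3 overlapping matches, 58 to 47 bases before the start. The match of Irf1 lies 13 to 4 bases and that of Irak1 18 to 9 bases before the start. The Tlr2 window held no match to the STAT word TTCNNNGAA or the AP-1 word TGANTCA, which 7.02% and 6.75% of all windows hold. A match is a description of the letters and shows no binding, and only 1 stretch is shown per gene. Irak1, Irf1, Tnfaip3 and Tank have more than 1 start in the RefSeq table. The windows of the 2 Irak1 starts hold the same match, 1 of the 2 windows each of Irf1 and Tnfaip3 holds none, and the 4 windows of Tank hold the match shown in 2 and another match in the other 2. The Tnfaip3 window shown holds a further match that begins 12 bases before the start. The Myd88 window held a match to TTCNNNGAA, as did windows of Irf1 and Tnip1. Windows of Tnfaip3, Tank and Ikbkg held a match to TGANTCA.

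The other measured Toll-like receptors were Tlr4, Tlr6 and Tlr3, and 0 of these 3 were called by edgeR, DESeq2, limma-voom or limma-trend, although Tlr4 had a p under 0.05 by edgeR before adjustment. The remaining 8 receptor genes of the list (Tlr1, Tlr5, Tlr7, Tlr8, Tlr9, Tlr11, Tlr12 and Tlr13) are not analysed here. Tlr4, the lipopolysaccharide receptor, had 63.5, 65.8 and 69.6 CPM in RANKL libraries against 61.8, 62.2 and 62.7 CPM in vehicle libraries. Its log2 fold change was 0.09 ± 0.04 (adjusted p = 0.148 by edgeR), although the groups did not overlap. Tlr6, which pairs with TLR2, had 11.6, 13.0 and 11.9 CPM under RANKL and 12.3, 13.7 and 11.5 CPM under vehicle, a log2 fold change of -0.04 ± 0.08 (adjusted p = 0.804 by edgeR). Tlr3, the sensor of double-stranded RNA, stood at 4.42 ± 0.868 CPM under RANKL and 3.99 ± 0.737 CPM under vehicle (SD, n = 3 each).

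Levels of different genes were compared per length, on the log2 scale of the authors' deposited normalised values (CPM per kilobase, as read from the values). Tlr2 lay below Tlr4 in every library on that scale, by 0.06, 0.09 and 0.19 in RANKL replicates 1, 2 and 3 and by 0.59, 0.60 and 0.75 in vehicle replicates 1, 2 and 3. On that scale the RANKL libraries thus had Tlr2 close to the level of Tlr4, and the groups did not overlap in this gap. Which of the 2 genes is higher depends on the lengths used. The deposited values imply 2.85 kb for Tlr2 and 3.84 kb for Tlr4, while their GENCODE M21 exons cover 3.01 kb and 5.56 kb. The longer length would lower Tlr4 relative to Tlr2, and the small gaps in RANKL libraries could change sign. Tlr2 exceeded Tlr6 by 1.82, 1.68 and 1.79 in RANKL libraries, against 1.17, 1.01 and 1.13 in vehicle libraries. These gaps hold the choice of Tlr2 in them and are descriptions of levels, without a test.

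Within the 6 genes the order of these levels was the same in both groups: Tollip, Irak1, Tlr2, Irak2, Myd88 and Cd14, from high to low. No neighbouring pair in that order overlapped in its 3 libraries, in either group. Tollip averaged 5.16 under RANKL and 5.19 under vehicle on the log2 scale, above 83.6% and 83.9% of genes in the table. Tlr2 averaged 3.99 under RANKL and 3.37 under vehicle, above 64.8% and 52.8% of genes. Cd14 averaged 1.43 under RANKL and 1.14 under vehicle, above 23.7% and 21.4% of genes. The distance between Tlr2 and Irak2 was the narrowest gap in vehicle libraries, where the lowest Tlr2 value was 3.28 and the highest Irak2 value 3.16.

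**Figure D2:**
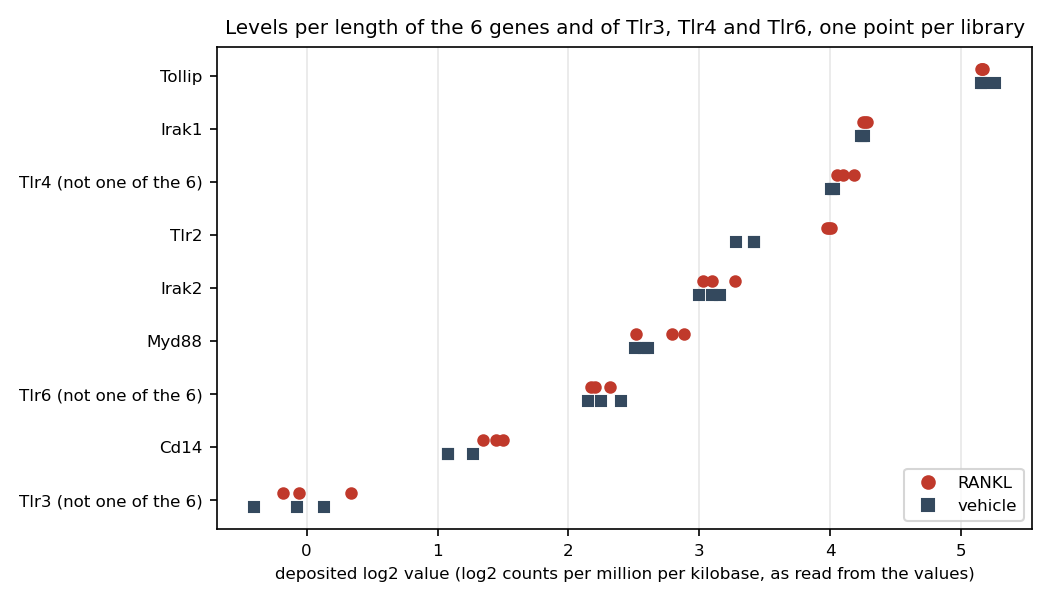
Levels per length on the log2 scale of the deposited normalised values, with 1 point per library, RANKL as red circles above vehicle as dark blue squares, for the 6 genes and for Tlr4, Tlr6 and Tlr3. Genes run from Tollip at the top, near 5.2, to Tlr3 at the bottom, near 0, and the widest separation between the colours is that of Tlr2, at 3.98 to 4.01 against 3.28 to 3.42.

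Cd14, the co-receptor that presents lipopolysaccharide and lipoproteins, had 4.48, 4.17 and 4.65 CPM in RANKL libraries and 3.45, 3.46 and 3.95 CPM in vehicle libraries. Every RANKL library stood above every vehicle library, with RANKL replicate 2 only just above vehicle replicate 3. The log2 fold change was 0.29 ± 0.11, with an interval for this gene alone of 0.05 to 0.53, and the gene was not called. It rested on 142 to 169 counts in RANKL libraries and 115 to 146 counts in vehicle libraries, where counting error alone is 8.03% and 8.71%. The gene lies on chromosome 18 from 36725067 to 36726798 and shares no exon with another gene.

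The other co-receptors and chaperones of the receptors split. Of 8 measured genes on that list besides Cd14, 1 rose and 1 fell, with a list median of 0.03 on the log2 scale. Lbp, the plasma protein that carries lipopolysaccharide to CD14, had 4.72, 4.55 and 3.5 CPM in RANKL libraries against 2.24, 2.46 and 1.68 CPM in vehicle libraries. It rose by 1.01 ± 0.16 on the log2 scale (adjusted p = 0.001 by edgeR). Tril, a co-receptor of TLR4 and TLR3, had 1.72, 1.82 and 2.14 CPM in RANKL libraries and 2.68, 3.13 and 3.63 CPM in vehicle libraries. Its fall by 0.73 ± 0.16 on the log2 scale (adjusted p = 0.00741 by edgeR) came from 62 to 71 counts in RANKL libraries and 104 to 134 in vehicle libraries, and its exon overlaps Gm16499 on the opposite strand. Ly96, the MD-2 subunit that TLR4 needs to bind lipopolysaccharide, stood at 4.37 ± 0.451 CPM under RANKL and 4.17 ± 0.227 CPM under vehicle and was not called. The chaperones Hsp90b1, Unc93b1, Cnpy3 and Cnpy4, which fold or carry the receptors, had log2 fold changes of 0.08, -0.03, -0.01 and 0.10 and were not called. With total count scaling Hsp90b1 was called.

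Myd88, the adaptor shared by most Toll-like receptors and by the IL-1 receptor, differed among the RANKL libraries. It had 10.9, 13.1 and 14.0 CPM in RANKL replicates 1, 2 and 3, against 11.6, 11.3 and 10.8 CPM in vehicle replicates 1, 2 and 3. RANKL replicate 1 fell within the vehicle range and the other 2 RANKL libraries stood above it, so the groups overlapped. The log2 fold change was 0.17 ± 0.09, with an interval of -0.02 to 0.36. Without RANKL replicate 1 it was 0.27 and the gene was called, and without RANKL replicate 3 it was 0.09. The coefficient of variation was 12.8% over RANKL libraries, where counting error gives 4.77%, and 3.59% over vehicle libraries. The second principal component of log2 CPM over all genes, with 14.7% of the variance, also set RANKL replicates 1 and 3 at its opposite ends (scores 11.9 and -11.5), and the part of that axis in the value of Myd88 was not tested.

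Myd88 lies on chromosome 9 from 119335934 to 119341411, and its exons overlap those of Acaa1a on the opposite strand. The use of strand in counting is not stated, so a read from the shared bases may have come from either gene. Acaa1a, a peroxisomal thiolase, had 24.3, 22.3 and 22.1 CPM in RANKL replicates 1, 2 and 3, against 21.4, 21.8 and 21.5 CPM in vehicle replicates 1, 2 and 3. The highest of its RANKL libraries was thus the one lowest for Myd88. The other measured adaptors were Ticam1 (TRIF), Tirap and Sarm1, of which edgeR called 0, as did DESeq2, limma-voom and limma-trend. By edgeR 0 of them had an unadjusted p under 0.05. Ticam1, which links TLR3 and TLR4 to interferon genes, had the smallest p, at 13.7 ± 0.377 CPM under RANKL and 14.8 ± 1.09 CPM under vehicle (log2 fold change -0.12 ± 0.07, adjusted p = 0.293 by edgeR).

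Irak1, the kinase that carries the signal from MyD88 to TRAF6, differed by little between libraries. Its level was 76.2, 75.0 and 76.9 CPM in RANKL libraries and 75.0, 75.9 and 74.5 CPM in vehicle libraries, and the groups overlapped. The log2 fold change was 0.02 ± 0.03, with an interval of -0.05 to 0.09, which bounds the fold between 0.965 and 1.06. Its coefficient of variation was 1.21% over RANKL libraries and 0.966% over vehicle libraries, no wider than counting error (1.94% and 1.91%). The gene lies on chromosome X from 74013914 to 74023918, and its exons hold the microRNA genes Mir718 and Mir5132 on the same strand.

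Irak2, a relative of IRAK1 known for sustaining the later phase of the response, had 30.8, 27.4 and 26.1 CPM in RANKL libraries. Vehicle libraries had 28.6, 27.4 and 25.5 CPM. The groups overlapped, and RANKL replicate 1 was the highest of the 6 libraries. The log2 fold change was 0.05 ± 0.06, with an interval of -0.08 to 0.19. It changed sign, to -0.02, without RANKL replicate 1. Irak2 lies on chromosome 6 from 113638467 to 113695026, where its exons overlap Gm43963 on the opposite strand.

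Of the 13 other measured genes among the IRAK kinases, TRAF6 and their partners, edgeR, DESeq2, limma-voom and limma-trend called 0 each, and 1 had a p under 0.05 by edgeR before adjustment. That 1 was Peli2, a ubiquitin ligase that acts on IRAK1, at 31.3 ± 2.10 CPM under RANKL and 34.6 ± 1.15 CPM under vehicle (log2 fold change -0.15 ± 0.05, adjusted p = 0.087 by edgeR). It was called without RANKL replicate 3, and in that setting alone among the 12 run. Irak4, the first kinase of the complex, Traf6, its ubiquitin ligase, and Map3k7 (TAK1) had log2 fold changes of 0.01, -0.02 and -0.002. Irak3, an IRAK that holds the complex back, had the lowest value of that list, -0.32 ± 0.15 (adjusted p = 0.185 by edgeR), at 2.71 ± 0.171 CPM under RANKL and 3.40 ± 0.637 CPM under vehicle. The list median was -0.04, against 0.00 over all genes.

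Tollip, the inhibitor, was the most abundant of the 6 genes, with 134, 131 and 133 CPM in RANKL libraries. In vehicle libraries it had 142, 132 and 133 CPM, with vehicle replicate 1 alone above the rest. The log2 fold change was -0.03 ± 0.04, with an interval of -0.11 to 0.04, and without vehicle replicate 1 it was 0.0007. The fold was thus bounded between 0.927 and 1.03. On chromosome 7 the gene runs from 141874813 to 141918507 and shares no exon with another gene.

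**Figure D3:**
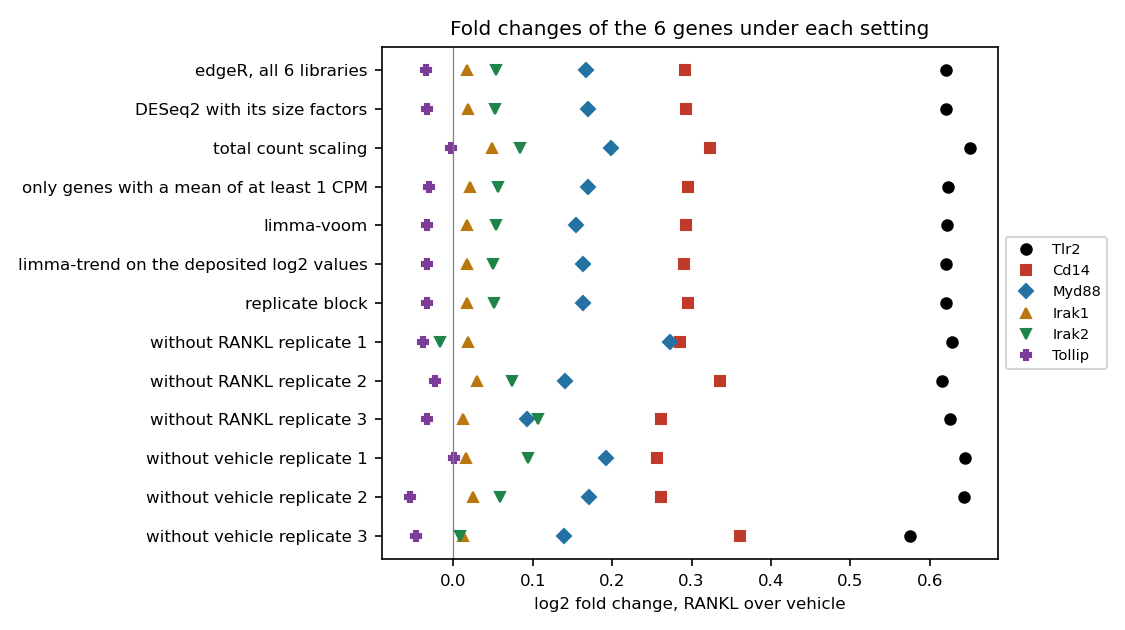
Log2 fold changes (RANKL over vehicle) of the 6 genes under edgeR with all libraries, 6 other settings and each library left out in turn. Tlr2 stays between 0.58 and 0.65 and apart from the other 5, Cd14 lies between 0.26 and 0.36, Myd88 between 0.09 and 0.27, and Irak1, Irak2 and Tollip lie around 0.

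Among the other inhibitors of the pathway, calls went both ways. Of 10 measured genes on that list besides Tollip, 3 rose, 1 fell and 6 were not called, with a median of 0.04 on the log2 scale. Zc3h12a (regnase-1), an RNase that degrades messages of inflammatory genes, had 26.0, 28.8 and 28.6 CPM in RANKL libraries against 10.01, 9.47 and 8.88 CPM in vehicle libraries. It rose by 1.55 ± 0.07 on the log2 scale (adjusted p = 1.67e-09 by edgeR), the largest change among the 7 pathway lists. Tnip1 (ABIN1), which binds A20, had 130 ± 4.72 CPM under RANKL and 111 ± 0.414 CPM under vehicle, and Tnfaip3 (A20), which edits ubiquitin chains on TRAF6, had 39.4 ± 1.96 CPM under RANKL and 34.4 ± 1.21 CPM under vehicle. Their log2 fold changes were 0.22 ± 0.03 and 0.19 ± 0.05, with adjusted p = 0.000907 and 0.0162 by edgeR, and Tnfaip3 was not called without RANKL replicate 2 or vehicle replicate 2. Pdlim2, which marks the p65 subunit of NF-kB for degradation, fell by 0.24 ± 0.03 on the log2 scale (adjusted p = 0.000461 by edgeR), with 143 ± 4.32 CPM under RANKL and 168 ± 4.14 CPM under vehicle. Sigirr, Tnip3, Tnfaip8l2 and Trim30a of that list are not analysed here.

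Below the adaptors, 3 of 9 measured kinases and their scaffolds rose and 0 fell. Map3k8 (TPL2), which relays Toll-like receptor signals to the ERK kinases, had 4.35, 4.73 and 4.68 CPM in RANKL libraries against 2.24, 2.40 and 2.49 CPM in vehicle libraries, a log2 fold change of 0.95 ± 0.12 (adjusted p = 0.000143 by edgeR). Ikbkg (NEMO), the regulatory subunit of the IkB kinase, and Tank, a TRAF-binding scaffold, had log2 fold changes of 0.16 ± 0.04 each (adjusted p = 0.0105 and 0.0222 by edgeR). Ikbkg was not called without vehicle replicate 2, and its exons overlap G6pdx on the opposite strand, which was itself called higher. Tank was not called without RANKL replicate 2, vehicle replicate 1 or vehicle replicate 3. Of the 3 measured IRF factors, Irf1 rose and Irf3 and Irf7 were not called, with log2 fold changes of -0.02 ± 0.06 and 0.20 ± 0.20.

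Over the 7 pathway lists together, with the 6 genes left out, 8 of 48 measured genes rose and 2 fell, which is 20.8% called against 12.9% over all genes. Another 17 genes of these lists are not analysed here. The calls sat in the co-receptors, the lower kinases, Irf1 and the inhibitors, and the receptors, adaptors and IRAK partners other than Tlr2 held none. Whether the lists differ from each other in their share of calls was not tested. Because the lists were fixed with earlier results of these data known, these shares are descriptions.

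**Figure D4:**
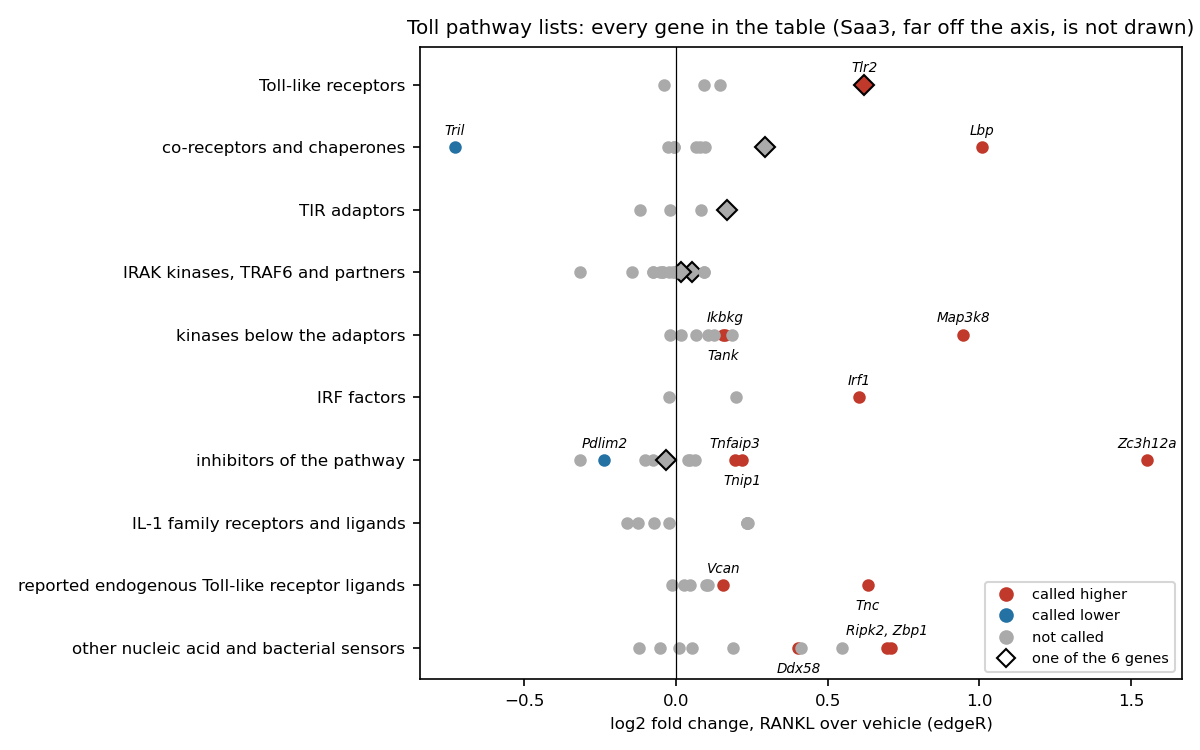
Log2 fold change (RANKL over vehicle, edgeR) of every gene in the table on the 7 pathway lists and on 3 lists of related genes. Diamonds are the 6 genes, red marks a gene called higher, blue a gene called lower and grey a gene not called; Tlr2 is the only diamond in red, and Zc3h12a, at 1.55, lies farthest to the right. Saa3, far off this axis, is not drawn.

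The IL-1 family shares MyD88 and the IRAK kinases with the Toll-like receptors, and of its 8 measured receptors and ligands edgeR, DESeq2 and limma-voom called 0 and limma-trend on the deposited log2 values called 1, Il18. Before adjustment 3 of them, Il1rap, Il33 and Il18, had a p under 0.05 by edgeR. The smallest was that of Il1rap, the accessory chain of the IL-1 receptor, at 7.78 ± 0.488 CPM under RANKL and 6.63 ± 0.309 CPM under vehicle (log2 fold change 0.23 ± 0.09, adjusted p = 0.094 by edgeR). Il1r1, the signalling receptor, had 30.9 ± 1.48 CPM under RANKL and 32.5 ± 1.18 CPM under vehicle.

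Among 8 measured genes whose products have been reported as endogenous ligands of TLR2 or TLR4, 3 rose: Saa3, Tnc and Vcan. Saa3, an acute phase protein, had 201, 305 and 320 counts in RANKL libraries and 2, 0 and 1 counts in vehicle libraries, a ratio of 286 with a 95% counting interval of 97.7 to 1390. Vcan (versican), a matrix proteoglycan, rose by 0.16 ± 0.04 on the log2 scale (adjusted p = 0.0145 by edgeR) and was not called without vehicle replicate 2 or 3. Tnc (tenascin C), another matrix protein, had 272 ± 25.1 CPM under RANKL and 176 ± 17.5 CPM under vehicle (log2 fold change 0.63 ± 0.07, adjusted p = 2.92e-05 by edgeR). Bgn, Dcn, Fn1, Hmgb1 and Hspd1 were not called and lay between -0.01 and 0.10. Hspd1 was called with total count scaling and without RANKL replicate 3.

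Of 10 measured sensors outside the Toll-like receptors, 3 rose. Ripk2, the kinase through which NOD1 and NOD2 signal, had 16.2, 17.9 and 17.1 CPM in RANKL libraries against 10.3, 10.7 and 10.6 CPM in vehicle libraries (log2 fold change 0.69 ± 0.07, adjusted p = 8.99e-06 by edgeR). Ddx58 (RIG-I), a sensor of viral RNA, had 17.7 ± 0.904 CPM under RANKL and 13.4 ± 0.778 CPM under vehicle (0.40 ± 0.07, adjusted p = 0.00126 by edgeR). Zbp1, a sensor of nucleic acids in the Z form, rested on 41 to 45 counts in RANKL libraries and 24 to 30 in vehicle libraries, and its call (adjusted p = 0.0321 by edgeR) ended with DESeq2 and without any 1 of the 6 libraries. The list median was 0.29 on the log2 scale.

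The genes nearest each of the 6 in pattern were found by the root mean square difference of log2 CPM over the 6 libraries, each gene centred on its vehicle mean, among the 11925 genes whose mean was 1 CPM or more. For Tlr2 these were Irf1, an interferon regulatory factor, at a distance of 0.0484, and Parp9, an ADP-ribosyltransferase, at 0.0559. Irf1 had 42.3, 43.0 and 41.5 CPM in RANKL libraries against 27.1, 29.0 and 27.4 CPM in vehicle libraries, a log2 fold change of 0.60 ± 0.04. Its exons overlap Gm17334 on the opposite strand. Within 0.1 of Tlr2 lay 17 genes. The distance contains the fold change, which was known when Tlr2 was chosen, so such counts are no test of a shared pattern. For Cd14 the nearest genes were S1pr2 (0.0412) and Lin9 (0.0447), and 145 genes lay within 0.1.

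Myd88 had Fam3c (0.0265) and Inpp4b (0.0316) as its nearest genes, with 243 genes within 0.1. Inpp4b, a phosphoinositide phosphatase, had 104, 125 and 134 CPM in RANKL replicates 1, 2 and 3 and 106, 111 and 103 CPM in vehicle replicates 1, 2 and 3. Like Myd88, Inpp4b had RANKL replicate 1 within the vehicle range, which follows from its choice by likeness over these same libraries. Otud7a and Mical2 were nearest to Irak2, and both had their highest value in RANKL replicate 1, which follows from the same kind of choice. Irak1 and Tollip had 7114 and 6555 genes within 0.1, so their nearest genes (Nudcd3 and Eif5b for Irak1, Pdpk1 and Ago1 for Tollip) single out no pattern.

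**Figure D5:**
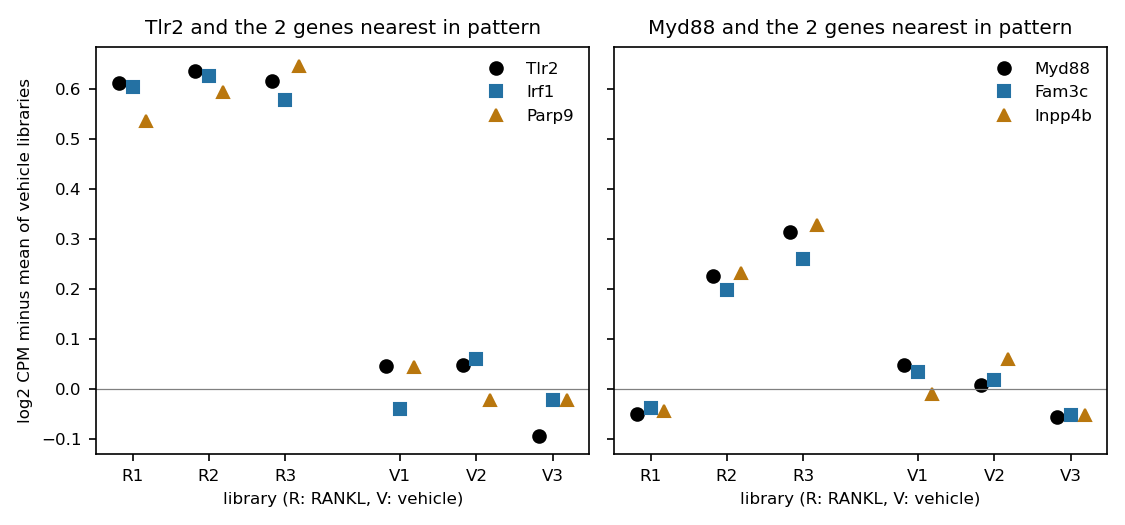
Log2 CPM of each library minus the mean of the vehicle libraries, for Tlr2 with Irf1 and Parp9 on the left and for Myd88 with Fam3c and Inpp4b on the right, RANKL libraries before vehicle libraries. The Tlr2 values of the 3 RANKL libraries lie at 0.612 to 0.635, while those of Myd88 are -0.05, 0.225 and 0.314.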

How the data were processed

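RNA sequencing counts of 3 RANKL and 3 vehicle libraries of C2C12 cells were analysed. Per the labels, sequencing was paired-end with 75 bases per read, and all samples were isolated and sequenced at the same time. The submitters' processing notes name FastQC, STAR, edgeR and mm10, with neither version nor role. The sources used here do not state the counter, the annotation or the use of strand.

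The authors deposited whole-number counts for 12625 gene symbols; 4708 empty lines were left out. The third-highest library of every gene had at least 0.504 CPM, so low genes had been removed before deposit. The authors also deposited log2 values, read here from the values as log2 CPM per kilobase. For the 8993 genes averaging 10 CPM or more they differed from log2 CPM by a constant per gene and per library, with a residual SD of 0.0018.

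Groups came from the sample titles. The test was edgeR 4.0.16 in R 4.3.3 (TMM, filterByExpr, which removed 0 genes, quasi-likelihood F test, Benjamini-Hochberg over all genes, threshold 0.05). Standard errors were derived from the F statistic, as the log2 fold change over the root of F. Principal components and pattern distances used log2 CPM with a prior count of 2. Alternatives were DESeq2 1.42.0, total count scaling, a minimum mean of 1 CPM, limma-voom and limma-trend (limma 3.58.1), a replicate block and leaving out each library. The genes, lists and naming rule were chosen with earlier results of these data known. The rule took the 6 genes, every called gene of 10 lists (or the smallest p where none was called) and the 2 nearest patterns per gene. Other genes named with a value, such as Irak3, Irak4, Traf6, Map3k7, Ly96, Tlr3, Tlr6, the receptor chaperones, Il1r1, Il33, Il18, Acaa1a and G6pdx, were added after their values were seen. Positions are from GENCODE M21 (mm10) and promoter sequences from RefSeq (GRCm38.p6).

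Chi-square per gene between replicates was 3.42 to 9.62, above sampling noise, and all 6 libraries were kept. On simulated counts for 12625 genes in 3 RANKL and 3 vehicle libraries, 90% of changes of log2 0.5 and 98% of changes of log2 1 were recovered, and 8.74% of calls were unchanged genes.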

Additional observations from a re-analysis of the deposited data

How the results depend on the processing

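The call of Tlr2 held in all 12 alternatives, with log2 fold changes of 0.58 to 0.65, and Cd14, Irak1, Irak2 and Tollip were called in none of them. Myd88 was called in 1, without RANKL replicate 1. These settings reuse the same libraries, and the genes were chosen with their values known. Agreement among the settings describes the processing and is no independent support for a call. Leaving out a library moved Irak2 between -0.0163 (without RANKL replicate 1) and 0.106, and Tollip between -0.0545 and 0.000663 (without vehicle replicate 1), each with a change of sign. Over the whole table, total count scaling gave 1070 genes higher and 626 lower, against 676 and 947, with TMM. Leaving out a library gave 373 to 746 genes higher and 537 to 880 lower, with 373 and 537 without vehicle replicate 2, 426 and 561 without vehicle replicate 1, and 596 lower without RANKL replicate 2. In the pathway lists 6 to 9 genes were then higher and 2 to 3 lower, and 10 were higher with total count scaling.

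Whether the replicate numbers pair the libraries is not settled by the correlations of their deviations from the group means. These were 0.118, 0.0534 and 0.0178 between libraries of the same number, for replicates 1, 2 and 3. RANKL replicates 1 and 2 correlated best with the vehicle library of their number, replicate 2 by little (0.0505 with vehicle replicate 3). RANKL replicate 3 correlated best with vehicle replicate 2 (0.0246). With the number as a replicate block, 730 genes were higher and 1008 lower, with 8 pathway genes higher and 2 lower. Depth limits the precision of genes such as Cd14, Tril and Zbp1, at 115 to 169, 62 to 134 and 24 to 45 counts per library.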
